A study of Mus musculus with 9 samples.

Results

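Oxidative phosphorylation is carried out by respiratory complexes I to IV and ATP synthase (complex V) in the inner mitochondrial membrane. Its protein-coding subunits are made from both genomes. Mitochondrial DNA encodes hydrophobic core proteins of complexes I, III, IV and V, and the nucleus encodes all of complex II and most other subunits, which are imported. The kidney, whose proximal tubule and thick ascending limb move large amounts of solute, is among the tissues richest in mitochondria. The members here were the protein-coding genes whose mouse symbols name a subunit (Nduf, Sdh, Uqcr, Cox4 to Cox8, Atp5 and the mt- genes) and whose mean level was at least 1 CPM, the count of a gene scaled to a common library size. Of 98 symbols that matched, 93 were members, 80 of them nuclear and 13 mitochondrial, out of 54532 gene identifiers. The choice used the mean level over all 9 libraries and no difference between groups. Symbols outside these patterns, such as Cyc1 of complex III, are not members.

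PolyA-selected RNA of mouse kidneys on the C57BL/6J background was sequenced in 9 libraries, 3 in each of 3 groups. For WT mice no treatment is given. KO mice were Trex1-/- and received PBS for 2 weeks, and KO_SN011 mice were Trex1-/- and received SN-011 at 10 mg/kg daily by intraperitoneal injection for 2 weeks, both from an age of 1 month. TREX1 is an exonuclease that removes cytosolic DNA, and SN-011 antagonises STING, which relays the signal of the DNA sensor cGAS toward interferon. Both Trex1-/- groups lacked the gene in all cells and came from crosses of heterozygotes, whereas the WT mice were bought and are not said to be littermates. The labels do not say that each library came from a separate animal, so p-values measure the spread between these libraries.

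Library totals ran from 16118813 to 21928965 counts. Trex1 was listed at 0 counts in all 9 libraries, WT included, so its level checks no label. Y-linked transcripts were present in all 3 KO libraries, in WT replicate 3 and in KO_SN011 replicate 2 and near 0 in the others, so no KO library lacks them. Xist, the transcript of the inactive X chromosome, was at 434 to 503 CPM in the others and at 0.182 to 0.453 in libraries with Y-linked transcripts. By both measures the libraries came from male and female kidneys, although the labels give no sex. Sex is therefore partly confounded with group in KO against WT and in KO_SN011 against KO. The defining kidney markers were present. The 8 proximal tubule markers summed to 9231 to 9695 CPM in WT, 8884 to 10526 in KO and 7853 to 10674 in KO_SN011. Among them Lrp2, Cubn, Slc5a2 and Slc5a12 were lower in every KO library than in every WT library, Slc22a6 was higher, and the others overlapped. Groups did not overlap for 25.4% of all genes. In KO against WT 1 of the 8 was called lower by edgeR (adjusted p under 0.05), against 1.88% of all genes called. The 4 thick ascending limb markers summed to 7989 to 9052 CPM in WT, 6779 to 7485 in KO and 7270 to 7748 in KO_SN011. By this sum every Trex1-/- library lay below every WT library. The 6 leukocyte markers summed to 20.5 to 28.8 CPM in WT, 39.4 to 48.7 in KO and 21.2 to 39.8 in KO_SN011, with KO above WT in all libraries. In such bulk samples, fewer cells of a type and less RNA per cell cannot be told apart.

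Mean levels of the members ran from 1.65 CPM for mt-Atp8 to 21489 CPM for mt-Co1. The 13 mitochondrial members took 5.04% to 6.76% of all counts and the 80 nuclear members 2.15% to 2.63%. Levels between genes are given as CPM per kb of exon, averaged over the 9 libraries. Among nuclear members the highest level in each complex belonged to Ndufa2 of complex I (276 CPM per kb), Sdhd, a membrane anchor of complex II (236), Uqcr10 of complex III (460), Cox6a1 of complex IV (996) and Atp5a1, the alpha subunit of ATP synthase (809). With the length of the principal transcript in place of all exons, these places in complexes II to V went to Sdhb (350), Uqcr10 (619), Cox6a1 (1225) and Atp5b, the catalytic beta subunit (1546). The lowest nuclear members by exon length were Cox6a2 at 3.04, Ndufb2 at 3.91 and Ndufa4l2 at 5.47 CPM per kb, and 447 exonic bases of Ndufb2 overlap other genes. At the threshold of 1 CPM, mt-Atp8 (1.65 CPM) and Cox6a2 (2.06) were just inside, and Cox8b (0.994) and Cox4i2 (0.808) just outside. Cox7b2, Cox8c and a second identifier of Atp5o were at 0 counts.

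A sequence feature divided the mitochondrial members. Mouse chromosome 1 carries a nuclear copy of mitochondrial DNA that is annotated as a row of pseudogenes from Gm28439, which starts at position 24611535 (GRCm38), to Gm29216, which ends at 24616197. The copy is on the minus strand. Within it, mt-Co2 matched Gm28661 over 681 of its 684 bases, mt-Atp6 matched Gm10925 over 678 of 681, mt-Co3 matched Gm28437 over 783 of 784 and mt-Nd4l matched Gm10222 over 294 of 297, with 0 substitutions in each aligned stretch. A read pair from such a stretch has the same sequence at both places, and only uniquely mapped pairs were counted by the authors. The stretches below are shown because they decide whether a read can be told apart. They come from the GENCODE vM21 transcripts, read in the direction of the gene, with differing bases in capitals. Positions are counted from 1 at the start of the mitochondrial gene. Bases 121 to 180 of mt-Atp6 show an identical stretch, bases 1 to 17 of mt-Nd3 hold the substitution T3C, the single difference from Gm28438, and bases 1054 to 1080 of mt-Co1 show the edge of the copy in Gm29216, with T1056A, C1057T, A1059G, A1060G, C1062A and A1066T.
mt-Atp6: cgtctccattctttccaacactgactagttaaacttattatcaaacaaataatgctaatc
Gm10925: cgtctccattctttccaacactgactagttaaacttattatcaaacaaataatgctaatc
mt-Nd3: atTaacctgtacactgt
Gm28438: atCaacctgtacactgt
mt-Co1: ggTCtAAcCggaAttgttttatccaac
Gm29216: ggATtGGcAggaTttgttttatccaac

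The copied genes were low and uneven between libraries. In mt-Co2, mt-Atp6, mt-Co3, mt-Nd3 and mt-Nd4l, 97% to 99.8% of all 150-base windows, the length of a read, also stood in an annotated nuclear gene. Their levels were 565, 639, 506, 101 and 106 CPM per kb. In mt-Nd4 (3503 CPM per kb) and mt-Co1 (13909), 59.2% and 23.6% of windows were copied. No window was copied in mt-Nd1 (8611 CPM per kb), mt-Nd2 (5769), mt-Nd5 (1851), mt-Nd6 (2743) and mt-Cytb (10270), and none in mt-Atp8, which had 8.07 CPM per kb and overlaps mt-Atp6 by 43 of its 204 bases. Excluding mt-Atp8, every gene with fewer than 60% of windows copied was therefore above each gene with more than 90%. The highest library exceeded the lowest by 1.38 to 1.74 times in these 7 genes. In the 5 copied genes it exceeded the lowest by 1.76 times for mt-Co2, 2.98 for mt-Nd3, 4.86 for mt-Atp6, 4.91 for mt-Co3 and 7.30 for mt-Nd4l. The counts of mitochondrial and nuclear origin in these genes cannot be told apart.

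**Figure D1:**
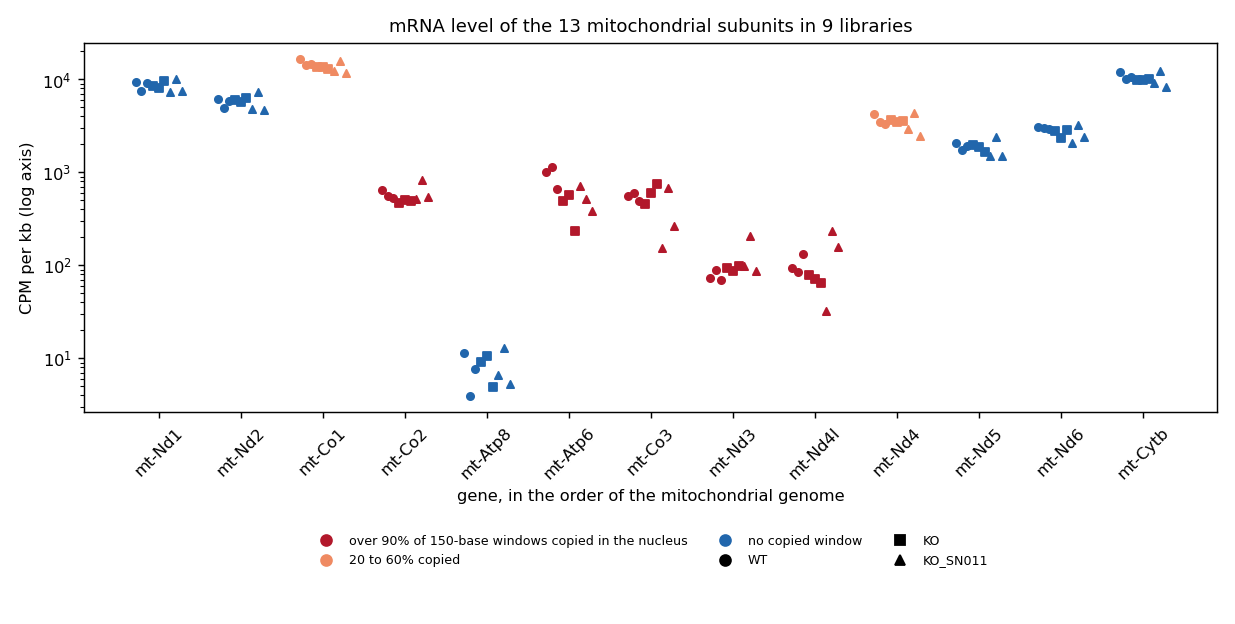
Level of each mitochondrial member in CPM per kb (log axis), 1 point per library, in the order of the mitochondrial genome. Red genes have over 90% of 150-base windows in a nuclear copy and lie between mt-Nd3 at a mean of 101 and mt-Atp6 at 639 CPM per kb, below all others but mt-Atp8.

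The pseudogenes themselves held counts. Gm28661, the copy of mt-Co2, was highest in KO_SN011 replicate 2 (429 CPM), as was mt-Co2 (562 CPM), whereas the copies of mt-Co3 and mt-Nd3 were highest in other libraries than their genes. Gm28437, the copy of mt-Co3, had 199, 272 and 264 CPM in the WT libraries, 308, 163 and 97.8 in KO and 261, 241 and 133 in KO_SN011. In the KO library with the highest mt-Co3 (592 CPM, replicate 3) the copy was at its lowest. Gm28438, the copy of mt-Nd3, stood between 6.5 and 10.8 CPM in 7 libraries and at 57.2 CPM in KO replicate 3 and 32.2 in KO_SN011 replicate 1. Adding gene and copy narrowed the range between libraries from 4.91 to 2.27 times for mt-Co3, from 4.86 to 3.21 for mt-Atp6 and from 7.30 to 5.89 for mt-Nd4l, and left it near 3 times for mt-Nd3 (2.98 and 2.99).

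The first question of the design was whether loss of Trex1 alters the kidney transcriptome. In KO against WT, 0 of 93 members passed an adjusted p under 0.05 in edgeR's quasi-likelihood F test, against a background of 1.88% of the 16646 genes tested (313 genes). At an unadjusted p under 0.05 there were 2 members, mt-Atp6 and Ndufa4l2, both lower in KO, against 15.2% of all genes. Another 3 tools and settings each called mt-Atp6 alone (edgeR's exact test, a lower expression filter and a replicate block), where they called 4.10%, 2.29% and 1.87% of all genes, while DESeq2's Wald test and limma-voom, which called 4.37% and 1.89% of all genes, called none. The groups did not overlap for 8 members (8.60%), against 25.4% of all genes. The 95% interval of the log2 fold change lay within 0.5 of 0 for 75 members. The median log2 fold change was -0.0095 over nuclear members and -0.069 over mitochondrial members, beside 0.0028 over all genes tested. With each library left out in turn the nuclear median ran from -0.10 without KO replicate 3 to 0.052 without KO replicate 2, so its sign turned, and the mitochondrial median from -0.18 without WT replicate 2 to -0.019 without WT replicate 1. With a term for Y-linked transcripts in the fit the mitochondrial median was -0.30. It was -0.25 over the 5 mitochondrial members with more than 90% of windows copied and -0.028 over the 6 with none.

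By complex, the nuclear medians in KO against WT were -0.023 for the 35 members of complex I, -0.062 for the 4 of complex II, 0.054 for the 8 of complex III, 0.013 for the 16 of complex IV and 0.0085 for the 17 of complex V. Among the 7 core subunits of complex I, which carry the flavin and the iron-sulphur clusters, 6 had a negative value and the median was -0.056. The other 28 nuclear subunits of complex I were split evenly, with 14 above and 14 below 0. The mitochondrial medians were -0.052 for complex I (7 members), -0.16 for complex IV (3) and -0.51 for complex V (2), and mt-Cytb of complex III stood at -0.13. Of the 13 mitochondrial members, 5 were lower in every KO library than in every WT library (38.5%, against groups that did not overlap for 25.4% of all genes and for 3.75% of nuclear members), and none of them passed the test. By copying, they were 3 of the 5 members with more than 90% of windows copied and 1 of the 6 with no copied window (16.7%). They were mt-Co1, mt-Nd6 and the copied genes mt-Co2, mt-Nd4l and mt-Atp6. mt-Co1 had 25333, 21941 and 22413 CPM in WT and 20893, 21164 and 20213 in KO, with a log2 fold change of -0.16. mt-Nd6, which has no copied window, had 1589, 1556 and 1527 CPM in WT and 1445, 1204 and 1479 in KO, with -0.18. mt-Co2 stood at -0.25 and mt-Nd4l at -0.54. The summed thick ascending limb markers were lower in every KO library than in every WT library as well. Among them Cldn10 and Cldn16 overlapped between these groups, and none was called. The proximal tubule markers Lrp2, Cubn, Slc5a2 and Slc5a12 were also lower in every KO library than in every WT library, and Slc22a6 was higher. The part of these markers in the mitochondrial values was not tested.

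mt-Atp6, the proton channel subunit of ATP synthase, had the smallest adjusted p of the members in KO against WT. Its level was 693, 783 and 457 CPM in WT, 333, 387 and 161 in KO and 490, 355 and 260 in KO_SN011. All KO libraries lay below all WT libraries, and KO_SN011 overlapped both. The log2 fold change was -1.13 ± 0.332 (SE) in KO against WT, with an edgeR adjusted p of 0.135 and a range of 0.00478 to 0.437 over the 20 alternatives. In KO_SN011 against WT it was -0.81 ± 0.330 (edgeR adjusted p = 0.237) and in KO_SN011 against KO 0.33 ± 0.328 (edgeR adjusted p = 0.747), with 0.039 without KO replicate 3 and 0.083 with the Y-linked term. Nearly its whole sequence stands in the nuclear copy Gm10925, which had 242, 151 and 240 CPM in WT and 185, 158 and 130 in KO. The part of the copy in the difference was not tested.

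The nuclear members with the smallest p on either side in KO against WT were small in effect, other than Ndufa4l2. Higher values were fitted for Atp5mpl, a short accessory subunit of ATP synthase (0.31 ± 0.142, edgeR adjusted p = 0.334), Ndufa3 of complex I (0.32 ± 0.184) and Cox7c of complex IV (0.24 ± 0.139). Lower values were fitted for Ndufb9 of complex I (-0.22 ± 0.125) and Atp5o, which joins the catalytic head of ATP synthase to its stalk (-0.20 ± 0.114). Replicate 3 of KO was the high library for Atp5mpl, Ndufa3 and Cox7c, and for Ndufb9 and Atp5o it lay at the level of the WT libraries. Without that library the values were 0.14 for Atp5mpl, 0.028 for Ndufa3, 0.044 for Cox7c, -0.39 for Ndufb9 and -0.29 for Atp5o. With the Y-linked term Atp5o was at -0.13. Of the 5 nuclear members on chromosome 9, which carries Trex1, Uqcrc1 was nearest, at 0.108 Mb. Uqcrc1, a core protein of complex III, had 663, 687 and 661 CPM in WT, 603, 579 and 672 in KO and 589, 612 and 653 in KO_SN011. Its log2 fold change in KO against WT was -0.12 ± 0.0960 (edgeR adjusted p = 0.608), with -0.19 without KO replicate 3 and -0.079 without KO replicate 2. The others, Sdhd, Cox5a, Cox7a2 and Atp5l, lay 29.3 to 64.1 Mb away and had values from -0.057 to 0.17.

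**Figure D2:**
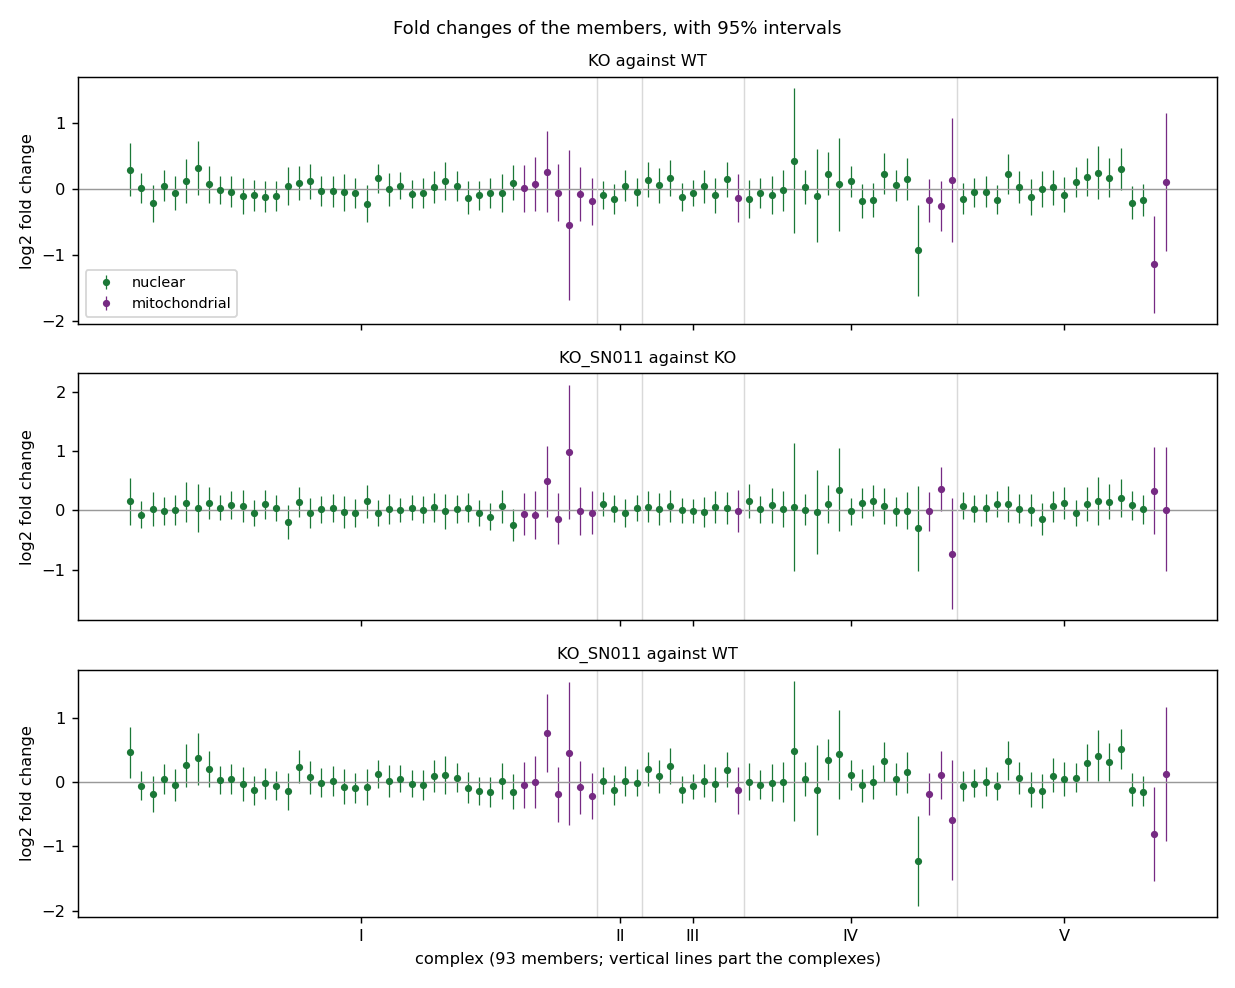
Log2 fold change of each of the 93 members in 3 comparisons, with 95% intervals, ordered by complex along the horizontal axis and within a complex with nuclear members first. No member passed an adjusted p under 0.05, and the 9 longest intervals in each comparison belong to mt-Nd4l, mt-Co3, mt-Atp6 and mt-Nd3, which are copied, to mt-Atp8, which is low, and to the low nuclear isoforms Cox6a2, Cox6b2, Cox7a1 and Ndufa4l2.

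The second question was whether SN-011 shifts the Trex1-/- kidney. In KO_SN011 against KO, 0 of 93 members passed the adjusted threshold and 0 had an unadjusted p under 0.05, against 0% and 11.4% of all genes. DESeq2, edgeR's exact test and limma-voom called 0 members as well, where they called 1.28%, 0.763% and 0% of all genes. Groups did not overlap for 1 member, mt-Co2, a copied gene (16.1% of all genes), with 319, 345 and 338 CPM in KO and 351, 562 and 369 in KO_SN011. The smallest adjusted p of any member was 0.466, and 78 of 93 intervals lay within 0.5 of 0 on the log2 scale. The medians were 0.036 for nuclear and -0.015 for mitochondrial members, against -0.0053 for all genes. With a library left out the sign of both turned, the nuclear median running from -0.012 without KO replicate 2 to 0.15 without KO replicate 3 and the mitochondrial median from -0.23 without KO_SN011 replicate 2 to 0.11 without KO_SN011 replicate 3. With the Y-linked term the mitochondrial median was 0.13. It was 0.36 over the 5 copied members and -0.028 over the 6 with no copied window. Nuclear members with the smallest p were Atp5mpl (0.20), Cox7b (0.16) and Ndufb3 (0.14) on the higher side, and Ndufv3 (-0.25), Ndufb2 (-0.19) and Atp5g2 (-0.15) on the lower side. Without KO replicate 3 these were 0.37 for Atp5mpl, 0.31 for Cox7b, 0.30 for Ndufb3, -0.068 for Ndufb2 and -0.0071 for Atp5g2, and without KO_SN011 replicate 1 Ndufv3 was at -0.15. With the Y-linked term Ndufv3 was at -0.079, Ndufb2 at -0.32, Atp5g2 at -0.093, Atp5mpl at 0.10 and Cox7b at 0.089.

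The third comparison set KO_SN011 against WT and so differed in genotype and treatment together. It shares libraries with both other comparisons. Again 0 of 93 members passed the adjusted threshold, against 1.28% of all genes. At an unadjusted p under 0.05 there were 11 members, 9 higher and 2 lower, which is 11.8% of members, against 18.0% of all genes. The groups did not overlap for 19 members (20.4%), all of them nuclear, against 21.7% of all genes. DESeq2's Wald test called Ndufa4l2 lower and Atp5mpl higher, and edgeR's exact test called Ndufa4l2, while limma-voom called none. Of all genes these tests called 5.22%, 3.61% and 1.08%. A lower expression filter called the same 2 members (1.96% of all genes), and the Y-linked term called Ndufa4l2 (3.94%). The medians were 0.014 for nuclear and -0.084 for mitochondrial members, beside -0.0034 for all genes. With a library left out the nuclear median ran from -0.022 without KO_SN011 replicate 3 to 0.039 without KO_SN011 replicate 2, and the mitochondrial median from -0.32 without KO_SN011 replicate 2 to 0.028 without KO_SN011 replicate 1. Over the 5 copied members it was 0.11 and over the 6 with no copied window -0.067.

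Ndufa4l2, a hypoxia-inducible paralog of the complex IV subunit Ndufa4, was low and had the smallest adjusted p of the members in KO_SN011 against WT. It had 8.82, 6.32 and 12.5 CPM in WT, 4.08, 3.62 and 6.84 in KO and 3.85, 4.87 and 3.03 in KO_SN011. Every KO_SN011 library lay below every WT library, and KO overlapped WT through its replicate 3. The log2 fold change was -1.23 ± 0.313 (edgeR adjusted p = 0.0879) in KO_SN011 against WT, with a range of adjusted p of 0.00553 to 0.189 over the alternatives. It was -0.92 ± 0.309 (edgeR adjusted p = 0.188) in KO against WT and -0.30 ± 0.320 (edgeR adjusted p = 0.760) in KO_SN011 against KO. The 8 fat markers, all of them detected, summed to 129 to 310 CPM in WT, 87.1 to 161 in KO and 106 to 124 in KO_SN011, with WT replicate 3 highest for both the markers and Ndufa4l2. The part of fat in the Ndufa4l2 values was not tested. Its paralog Ndufa4 stood at 299, 300 and 332 CPM in WT, 301, 315 and 420 in KO and 313, 389 and 330 in KO_SN011.

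The other tissue-restricted isoforms were near the floor of the kidney's range. Cox6a2, the heart and muscle form of subunit 6A, had 0.948 to 3.80 CPM, beside 608 to 827 CPM for Cox6a1. Cox7a1, the muscle and brown fat form of subunit 7A, had 3.27 to 8.07 CPM, beside 236 to 300 for Cox7a2. Cox6b2, known from testis, had 5.16 to 13.9 CPM, beside 283 to 374 for Cox6b1. The groups overlapped for all 3 isoforms in all comparisons. Skeletal muscle markers summed to 1.28 to 3.30 CPM, and the muscle myosin Myh4 was at 0 in all libraries. Cox8b, just below the threshold and a gene of muscle and brown fat, had 2.73, 1.08 and 2.78 CPM in WT, 1.04, 0 and 0.435 in KO and 0.170, 0.116 and 0.594 in KO_SN011.

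Fitted values among nuclear members fell with protein length and with transcript length. The classes of length were chosen after the values were seen, so they carry no test. The 23 nuclear members of at most 100 residues had a median log2 fold change of 0.15 in KO against WT, 0.052 in KO_SN011 against KO and 0.21 in KO_SN011 against WT. The 37 of over 100 to 200 residues had -0.025, 0.033 and 0.0013, and the 20 of over 200 residues -0.056, 0.016 and -0.058. Other genes tested with proteins of at most 100 residues (288 genes) had medians of 0.050, 0.0028 and 0.028 in the same order. Across the 80 nuclear members, which are not independent, Spearman's rho between protein length and log2 fold change was -0.57, -0.26 and -0.62, and across 14115 other genes it was 0.020, 0.062 and 0.068. With the length of the principal transcript in place of the protein it was -0.38, -0.35 and -0.49 across members and 0.060, 0.11 and 0.13 across other genes, so that in KO_SN011 against KO the value for transcript length was further from 0 than that for protein length.

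In KO_SN011 against WT, 8 of the 23 short members had an unadjusted p under 0.05, against 53 of the 288 other short genes and 18.0% of all genes. These were Atp5mpl, Atp5e, Atp5k and Atp5j2 of ATP synthase, Cox6c and Cox7c of complex IV and Ndufa1 of complex I on the higher side, with Ndufa4l2 lower. The slightly longer Atp5l was the only other nuclear member with such a p, and was higher. Atp5mpl had 62.4, 68.6 and 65.4 CPM in WT, 79.5, 65.4 and 98.8 in KO and 97.1, 81.4 and 102 in KO_SN011. All KO_SN011 libraries exceeded all WT libraries, with a log2 fold change of 0.51 ± 0.142 (edgeR adjusted p = 0.106, range 0.0250 to 0.250 over the alternatives). Ndufa1, an X-linked subunit needed to assemble complex I, had 38.2, 42.6 and 44.0 CPM in WT, 43.2, 41.4 and 69.6 in KO and 51.9, 63.4 and 56.4 in KO_SN011, with 0.46 ± 0.179 (edgeR adjusted p = 0.217). Atp5e, the epsilon subunit of the ATP synthase head, had 184, 205 and 180 CPM in WT, 198, 194 and 273 in KO and 234, 224 and 260 in KO_SN011, with 0.33 ± 0.137 (edgeR adjusted p = 0.239). On the lower side, Ndufa11 had -0.18 ± 0.128 and Ndufv1, the flavin-binding core subunit, -0.16 ± 0.103. Of the 23 short members, 12 had groups that did not overlap in KO_SN011 against WT (52.2%, against 23.6% of the 288 other short genes). In KO against WT it was 1 (4.35%, against 20.5% of the other short genes), and in KO_SN011 against KO 0 (against 11.5%).

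**Figure D3:**
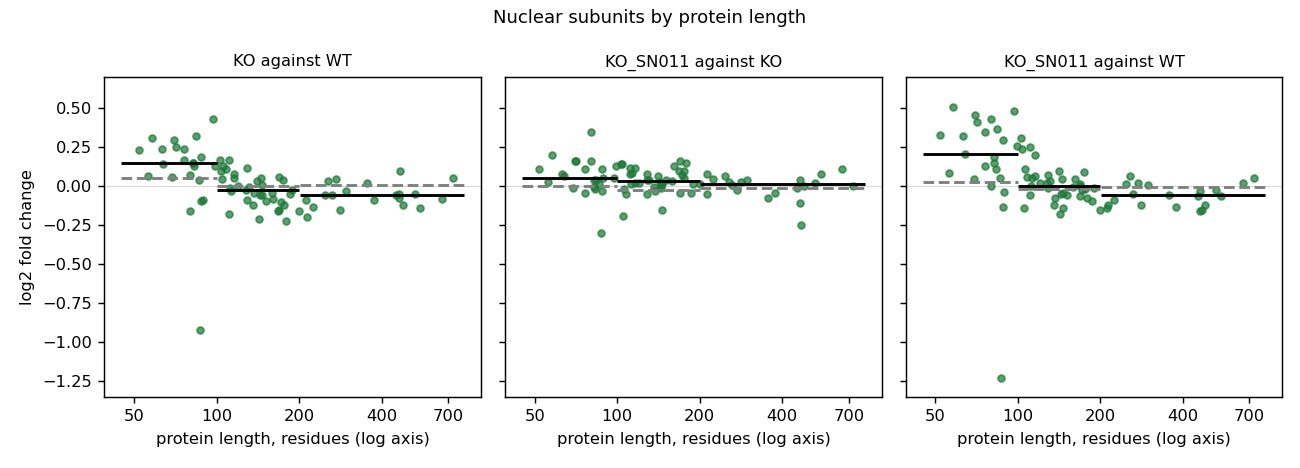
Log2 fold change of the 80 nuclear members against protein length in residues (log axis) in 3 comparisons. Solid lines are medians of members and dashed lines medians of other genes tested in the same length class, and the shortest class lies at 0.21 in KO_SN011 against WT, with Ndufa4l2 as the low point at -1.23.

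**Figure D4:**
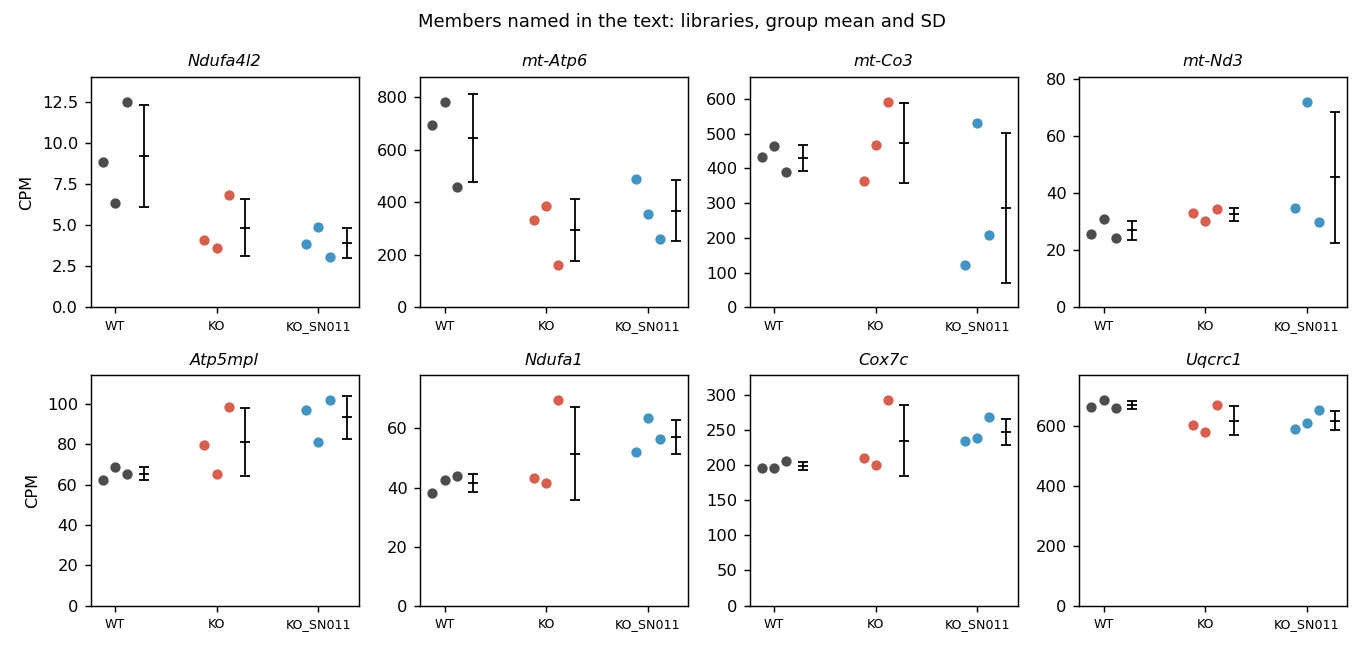
CPM of 8 members in each library, with group mean and SD (n = 3) as bars. Ndufa4l2 and mt-Atp6 were highest in WT, and in KO a single library was above the other two for Ndufa1, Cox7c and Uqcrc1.

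The spread of the nuclear members lay between libraries more than between groups. KO replicate 3 was the highest of the 9 libraries for 51 of 80 nuclear members (63.8%) and KO replicate 2 the lowest for 41 (51.2%), where over all genes these libraries were highest for 12.9% and lowest for 8.85%. The median deviation of nuclear members from their 9-library mean was 0.20 in KO replicate 3, -0.10 and -0.15 in KO replicates 1 and 2, between -0.027 and 0.022 in WT and between -0.023 and 0.090 in KO_SN011, on the log2(CPM + 0.25) scale. In short members the deviation of KO replicate 3 was 0.32. Without that library, the median of short members in KO against WT moved from 0.15 to -0.018 and in KO_SN011 against KO from 0.052 to 0.27 (-0.033 without KO replicate 2), while in KO_SN011 against WT it was between 0.18 and 0.26 whichever library was left out. Without KO replicate 3 the median of all nuclear members was -0.10 in KO against WT and 0.15 in KO_SN011 against KO.

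Mitochondrial members varied in another set of libraries. KO_SN011 replicate 2 was the highest library for 10 of 13, and KO_SN011 replicates 1 and 3 were the lowest for 4 and 5. Of all 16646 genes tested, replicate 2 was the highest for 2737 (16.4%), the most of any library, and replicates 1 and 3 were the lowest for 2293 (13.8%) and 1746. Summed, mitochondrial members reached 69376 CPM in KO_SN011 replicate 2 and 50457 and 48232 CPM in its replicates 1 and 3, against 56944 to 67546 in WT and 56695 to 58210 in KO. KO_SN011 replicate 2 is also the KO_SN011 library with Y-linked transcripts, and its proximal tubule markers summed to 10674 CPM, against 7853 and 8610 in replicates 1 and 3. Of the 8 markers, 5 were highest in replicate 2 of the 3 libraries. Slc7a13 had 871 CPM in replicate 2 against 47.1 and 43.4, Slc22a6 907 against 352 and 367, Lrp2 2133 against 1665 and 1635, Cubn 432 against 360 and 378 and Slc34a1 5243 against 4297 and 5006, while Slc5a12 had 132 against 156 and 205, Slc5a2 250 against 250 and 330 and Slc13a3 706 against 726 and 647. Of these, Slc7a13 and Slc22a6 followed the Y-linked transcripts in all 9 libraries. Slc7a13 was at 2.26 to 47.1 CPM in libraries without such transcripts and at 490 to 871 in those with them. Slc22a6 was at 317 to 368 and 632 to 907 CPM in the same order. The part of these markers in the mitochondrial values was not tested. For mt-Co3, a subunit of the catalytic core of complex IV, this library decided the call. mt-Co3 had 433, 466 and 391 CPM in WT, 363, 467 and 592 in KO and 121, 530 and 207 in KO_SN011. Its log2 fold change was -0.73 ± 0.424 in KO_SN011 against KO (edgeR adjusted p = 0.545) and -0.59 ± 0.423 against WT (edgeR adjusted p = 0.512). Without KO_SN011 replicate 2 these were -1.54 (edgeR adjusted p = 0.0139) and -1.40 (edgeR adjusted p = 0.0204), in fits that called 3.05% and 2.21% of all genes. mt-Nd3, also copied, had 25.8, 30.8 and 24.2 CPM in WT, 32.9, 30.1 and 34.6 in KO and 34.7, 72.0 and 30.0 in KO_SN011, and a log2 fold change of 0.76 ± 0.274 in KO_SN011 against WT (edgeR adjusted p = 0.189), which was 0.26 without KO_SN011 replicate 2.

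**Figure D5:**
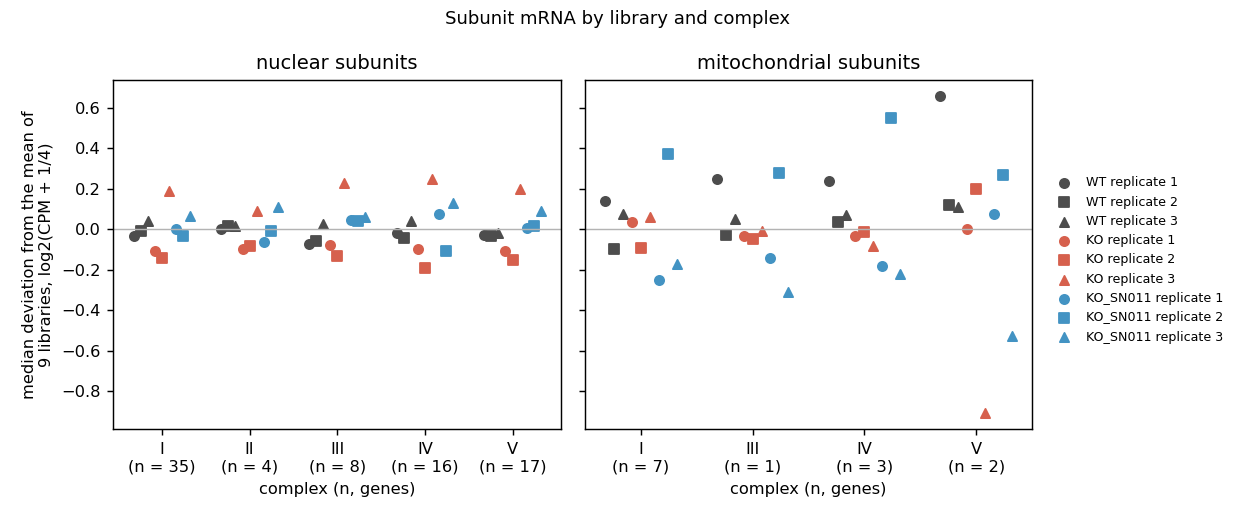
Median deviation of the subunits of each complex from their 9-library mean, on the log2(CPM + 0.25) scale, 1 point per library. Nuclear subunits are highest in KO replicate 3 in complexes I, III, IV and V, and mitochondrial subunits of complexes I, III and IV are highest in KO_SN011 replicate 2.

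Nuclear and mitochondrial members were then set against each other within each library, as the log2 of summed mitochondrial over summed nuclear CPM in the 4 complexes that draw on both genomes. The ratio was 1.65, 1.37 and 1.44 in WT, 1.50, 1.52 and 1.26 in KO and 1.23, 1.68 and 1.06 in KO_SN011, so that mitochondrial mRNA exceeded nuclear mRNA by 2.09 to 3.20 times. The means were 1.49 ± 0.14, 1.43 ± 0.14 and 1.32 ± 0.32 (SD, n = 3). The differences of -0.062 in KO against WT, -0.10 in KO_SN011 against KO and -0.16 in KO_SN011 against WT were close to or smaller than the spread between libraries, and the groups overlapped in each. With each library left out in turn they ran from -0.12 without WT replicate 2 to 0.021 without KO replicate 3 in KO against WT, from -0.28 without KO_SN011 replicate 2 to 0.027 without KO_SN011 replicate 3 in KO_SN011 against KO, and from -0.34 to -0.035 without the same libraries in KO_SN011 against WT, so the sign turned in the first 2. In KO against WT the difference was -0.0092 without the copied genes and -0.14 as a mean of log2 CPM over members, and in KO_SN011 against KO -0.031 by that mean. With 3 libraries a group, an exact permutation test of the ratio could not reach 0.05, and none was run.

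By complex the ratio behaved alike where the mitochondrial genes were abundant. Group means for WT, KO and KO_SN011 were 2.16, 2.18 and 2.07 for complex I, 2.27, 2.16 and 2.11 for complex III and 2.47, 2.32 and 2.22 for complex IV, with overlapping groups in all comparisons. Complex V stood apart, since its mitochondrial part is mt-Atp6 and mt-Atp8. Its ratio was -3.76, -3.63 and -4.36 in WT, -4.73, -4.48 and -5.96 in KO and -4.23, -4.72 and -5.26 in KO_SN011. The difference of -1.14 in KO against WT, with groups that did not overlap, is that of mt-Atp6 described above.

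Genes that serve the chain without being subunits were counted in 6 lists. None of the lists held a member with an adjusted p under 0.05 in any comparison. Of 50 assembly factors tested, medians were 0.026 in KO against WT, -0.036 in KO_SN011 against KO and -0.023 in KO_SN011 against WT. The 27 genes of mitochondrial DNA maintenance, transcription and RNA had medians of 0.11, -0.033 and 0.12, and in KO against WT 21 of 27 were above 0 and 9 did not overlap between groups, against 25.4% of all genes. Tfam, which packages and transcribes mitochondrial DNA, had 45.1, 46.3 and 46.1 CPM in WT, 51.8, 47.1 and 59.5 in KO and 51.7, 50.8 and 57.9 in KO_SN011. All Trex1-/- libraries exceeded the WT libraries, with log2 fold changes of 0.20 ± 0.0979 in KO and 0.22 ± 0.0978 in KO_SN011 against WT (edgeR adjusted p = 0.355 and 0.268). Polrmt, the mitochondrial RNA polymerase, stood at 0.11 ± 0.0829 and -0.022 ± 0.0830. The 20 genes of the TCA cycle and electron entry had medians of 0.0026, -0.041 and -0.064, and the 16 genes of the outer membrane, import and nucleotide exchange 0.024, -0.018 and 0.011.

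The 16 regulators of mitochondrial biogenesis had medians of 0.0071 in KO against WT, 0.14 in KO_SN011 against KO and 0.18 in KO_SN011 against WT. In the last comparison 8 of 16 had an unadjusted p under 0.05, all higher, against 18.0% of all genes (1644 of 16646 higher), and 9 of 16 did not overlap, against 21.7% of all genes. The log2 fold changes of the 8 ran from 0.20 to 0.52 and the edgeR adjusted p from 0.0825 to 0.264. The subunits, by the same measure, had 11.8% with an unadjusted p under 0.05. Ppargc1a, a coactivator that drives biogenesis, was not among them and had 107, 121 and 94.5 CPM in WT, 98.4, 98.6 and 105 in KO and 109, 93.3 and 142 in KO_SN011, with overlapping groups. Of the 3 uncoupling proteins, Ucp1, which dissipates the proton gradient in brown fat, had 6.41 to 27.2 CPM in WT, 0.117 to 4.20 in KO and 1.51 to 5.95 in KO_SN011. Its log2 fold change in KO against WT was -2.84 ± 0.802 (edgeR adjusted p = 0.125), and it is itself among the fat markers given above.

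Promoters of nuclear members were searched for motifs of regulators of respiratory genes, since the members varied together between libraries. RefSeq promoters of 300 bases (GRCm38.p6) were found for 66 of the 80. The palindrome GCGCATGCGC, a core of the binding site of NRF1, stood in 5 of 66 (7.58%), against 1.47% of 17492 protein-coding genes with a promoter. The motif CCGGAAG, bound by ETS factors such as GABPA, stood on either strand in 16 (24.2%), against 12.9%. The motifs do not overlap each other in letters. Atp5k and Cox6a1 held both, and their promoters are shown because they carry both motifs, in capitals. Atp5k lies at chr5:108434350-108434649 and Cox6a1 at chr5:115348909-115349208, both on the minus strand and written in the direction of the gene.
Atp5k: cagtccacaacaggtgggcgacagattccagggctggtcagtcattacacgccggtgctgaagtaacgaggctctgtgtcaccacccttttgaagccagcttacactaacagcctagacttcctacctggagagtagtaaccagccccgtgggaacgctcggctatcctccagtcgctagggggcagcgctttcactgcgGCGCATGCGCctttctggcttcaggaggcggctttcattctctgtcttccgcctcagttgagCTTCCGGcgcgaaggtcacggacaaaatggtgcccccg
Cox6a1: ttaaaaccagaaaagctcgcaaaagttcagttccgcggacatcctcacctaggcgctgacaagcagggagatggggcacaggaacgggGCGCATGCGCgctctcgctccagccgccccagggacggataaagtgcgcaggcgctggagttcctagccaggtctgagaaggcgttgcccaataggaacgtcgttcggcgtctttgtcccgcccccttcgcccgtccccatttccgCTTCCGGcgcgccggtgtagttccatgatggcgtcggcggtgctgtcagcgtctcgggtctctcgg
The motif factors' own genes were not called, with Nrf1 at 0.26 and Gabpa at 0.20 in KO_SN011 against WT, both among the 8 regulators with an unadjusted p under 0.05. Cox6a1 had 641, 687 and 777 CPM in WT, 649, 608 and 827 in KO and 697, 639 and 771 in KO_SN011, and the groups overlapped. A match is a description of the letters and not a bound site.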

How the data were processed

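Kidney polyA RNA was sequenced in 9 libraries of WT, KO and KO_SN011 mice, grouped by their titles. The authors used Trimmomatic for trimming and hisat2 with its defaults for alignment. The deposited values are featureCounts counts, not normalized, of pairs with a unique map position. The submitters' processing notes give mm10, and tool versions, annotation release and strand setting are not given in the sources used here. Of the identifiers, 54409 matched GENCODE vM21 (GRCm38) and 123 did not.

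Analysis used edgeR 4.0.16 in R 4.3.3. The filter was filterByExpr (minimum count 10, minimum total 15) and the scaling TMM, and the group means of all 9 libraries were estimated in 1 quasi-likelihood fit. Calls used a Benjamini-Hochberg adjusted p under 0.05 over all 16646 genes tested. The script was tested on simulated data. Intervals of 95% are the fold change plus or minus the t quantile times the SE. CPM are TMM-scaled, and depth of 16118813 to 21928965 counts limits precision for members near 1 CPM.

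The members and lists were chosen with earlier results of these data known. Members named are the 13 mitochondrial genes, the 3 nuclear members with the smallest p on each side per comparison, tissue isoforms, members on chromosome 9 and the highest per complex, and from other lists Ppargc1a, Tfam and Polrmt. Genes named outside this rule, such as Cox7a2, Cox8b, Ucp1, Nrf1 and the short subunits, were chosen after their values were seen. Overlap with nuclear copies was counted in windows of 75 and 150 bases of GENCODE transcripts. The complex I gene highest by principal transcript length is not reported here. Alternatives were other scalings, filters and tests (DESeq2 1.42.0, edgeR's exact test, limma-voom), a fit of 6 libraries, a replicate block, a term for Y-linked transcripts and leaving out each library.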

Additional observations from a re-analysis of the deposited data

How the results depend on the processing

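The count of members called was 0 in every comparison and stayed 0 under most of the 20 alternatives. In KO against WT it was 1 (mt-Atp6) with no filter beyond 1 read, with edgeR's exact test and with the replicate block. In KO_SN011 against WT it was 2 (Ndufa4l2, Atp5mpl) with no such filter and with DESeq2, and 1 (Ndufa4l2) with the exact test and with the Y-linked term. Leaving out each library gave 0 to 1 in KO_SN011 against KO and against WT, the 1 being mt-Co3 without KO_SN011 replicate 2. Mitochondrial medians moved by more than the spread between libraries to -0.30 in KO against WT with the Y-linked term, and ran from -0.32 to 0.028 in KO_SN011 against WT over the libraries left out. All other medians over all nuclear or all mitochondrial members and all ratios, including the ratio without copied genes, without mt-Nd6, as a mean of log2 CPM and with the counts of the copies added (chosen after seeing the data), moved by less than that spread, although with a library left out the sign turned for the nuclear medians in all comparisons, for the mitochondrial median in KO_SN011 against KO and for the ratio in KO against WT and in KO_SN011 against KO. The sign also turned for the mitochondrial median in KO_SN011 against KO with the Y-linked term (0.13) and for the nuclear median in KO_SN011 against WT with upper-quartile factors (-0.010) and with no filter beyond 1 read (-0.0021). Signs turned for mt-Co3 in KO against WT (-0.50 with the Y-linked term, -0.055 without KO replicate 3, -0.055 to 0.30 over the libraries left out), for mt-Nd3 in KO against WT (-0.12 with the Y-linked term) and in KO_SN011 against KO (-0.013 without KO_SN011 replicate 2, up to 0.72 over the libraries left out), and for Ndufa4l2 in KO_SN011 against KO (0.090 with the Y-linked term, 0.031 without KO replicate 3, from -0.49 over the libraries left out). The cause was not tested. CPM over raw totals gave the same number of members (93). Correlations of same-numbered libraries between groups ran from -0.294 to 0.242, and those of differently numbered libraries from -0.368 to 0.38. Between KO and KO_SN011 the same-numbered pairs (0.198, 0.242 and 0.0981) were above the others (-0.216 to 0.0914). Between WT and KO they were at 0.133, -0.00809 and 0.102, against -0.128 to 0.038. Between WT and KO_SN011 they were at 0.238, -0.294 and -0.143, against -0.368 to 0.38. These values do not settle whether the numbers pair the libraries, and the replicate block changed no other call.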
